A study of Mus musculus with 2 samples.

Results

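The cell cycle genes described here are 42 genes of the 32285 in the deposited count matrices, chosen by name for their part in the division cycle, and all 42 were found. They were followed across the cell types of liver tumours from C57BL/6J mice, in 1 library of WT tumours and 1 of FABP5 hKO tumours, in which FABP5, a fatty acid carrier protein, was to be removed from hepatocytes by a tamoxifen-dependent Cre recombinase under the albumin promoter (Alb-CRE-ER). The WT and FABP5 hKO mice were littermates aged 6 to 8 weeks that all received tamoxifen (100 mg/kg after a 16 h fast, 5 injections at 3-day intervals). A CD-HFD diet began 2 weeks after the final injection and was kept up for 15 months. Each library was made from a pool of 2 to 3 freshly dissected hepatocellular carcinoma (HCC) tumours, digested with collagenase and read by droplet single-cell sequencing of transcript 3′ ends. With 1 library per group there was no test, and every interval below covers counting error only. Differences between tumours, animals and library preparations cannot be told apart from the genotype.

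The division cycle is driven by cyclin-dependent kinases, each switched on by a cyclin. Signals from outside the cell raise the D cyclins, which release the E2F transcription factors from their block and so start the genes of DNA replication; later the A and B cyclins with Cdk1 carry the cell into mitosis, and the anaphase-promoting complex ends it by marking mitotic proteins for destruction. The inhibitor p21, product of Cdkn1a and a target of p53, holds the kinases back. In the adult liver most hepatocytes rest, whereas activated lymphocytes and dendritic cell precursors are known to divide.

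The 42 genes were read by role. The first steps of the cycle were covered by Ccnd1, Ccnd2, Ccnd3, Ccne1, Ccne2 and Cdk2, and the brake by Cdkn1a. DNA replication and its precursors were covered by Cdc6, Mcm2 to Mcm7, Pcna, Rrm1, Rrm2 and Tyms, and microtubule dynamics outside the strict mitotic set by Stmn1. The other 23, called mitotic members here, were the cyclins and kinase of mitosis (Ccna2, Ccnb1, Ccnb2, Cdk1), mitotic kinases and checkpoint proteins (Aurka, Aurkb, Plk1, Bub1, Bub1b, Birc5, Cdca8), proteins of regulated destruction (Cdc20, Ube2c, Cdca3), centromere proteins (Cenpa, Cenpe, Cenpf), spindle proteins (Tpx2, Kif11, Kif23, Nusap1) and the chromosome proteins Mki67 and Top2a. The 11 replication members together with Ccne1 and Ccne2 formed the 13 S-phase members.

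After filtering, 9076 WT and 10402 hKO cells were kept, with 44720349 and 48372603 unique transcript counts (UMIs) and medians of 3753 and 3639.5 per cell. More barcodes of the hKO library (36.8%) than of the WT library (18.5%) exceeded the 25% mitochondrial limit, and 73 barcodes occurred in both. Clustering without the cell cycle genes gave 27 clusters, of which 22 could be named from marker genes, and 11 of the 13 resulting classes held at least 100 cells in each library. In hepatocyte-like cells Fabp5 had 86 UMIs in WT and 16 in hKO, or 115 and 9.92 CPM, the count of a gene scaled to a fixed total of 1000000 UMIs, although the labels do not say which exons were removed. Over all kept cells it stood at 16.2 and 15.7 CPM.

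Dividing cells were counted as those with UMIs of at least 2 mitotic members after each cell had been thinned to 1000 UMIs. They made up 150 of 8215 cells in WT, 1.83% (95% Clopper-Pearson interval 1.55 to 2.14), and 242 of 9491 in hKO, 2.55% (2.24 to 2.89). Without thinning the shares were 6.88% and 7.35%. The log2 ratio of the thinned shares was 0.48 (Katz interval 0.19 to 0.77), and it was 0.10 without thinning. Neutrophil-like cells, which leave the cycle before they mature, gave the background: 3 of 447 in WT (0.67%) and 1 of 244 in hKO (0.41%), at median depths of 1919 and 1946 UMIs.

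Cells counted as mitotic held other cycle transcripts that had not been used to choose them. Stmn1, a microtubule-destabilising protein, had a UMI in 54.7% of mitotic cells against 2.27% of the others in WT, and in 44.6% against 2.55% in hKO. Rrm2, a subunit of the enzyme that makes DNA precursors, was found in 9.09% against 0.25% in hKO, and Pcna in 20.7% against 5.11% in WT. Ccnd3 went the other way, with 24.7% of mitotic cells against 44.1% of the others in WT. Mitotic cells were also deeper before thinning, with medians of 6352.5 UMIs in WT and 7428.5 in hKO against 4071 and 3962 in the others.

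Among the named classes, T-like cells held the largest part of the mitotic cells in both libraries, 24.0% in WT and 33.9% in hKO. Conventional dendritic-like cells followed with 14.7% and 15.7%. Endothelial-like cells held 13.3% in WT and 2.48% in hKO, and macrophage-like cells 11.3% and 15.3%. Cells of unnamed clusters made up a further 18.7% and 22.3%.

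**Figure D1:**
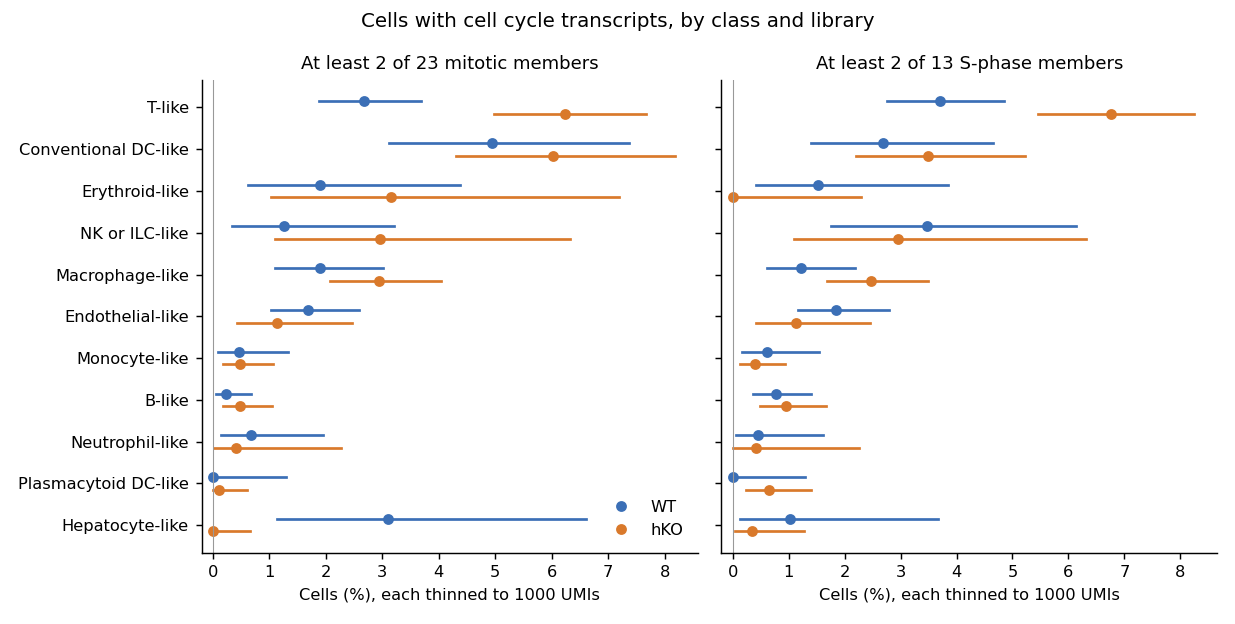
Share of cells with UMIs of at least 2 mitotic members (left panel) or 2 S-phase members (right panel) in each class (y axis; DC, dendritic cell; ILC, innate lymphoid cell), as percent of cells thinned to 1000 UMIs (x axis), with 95% Clopper-Pearson intervals for counting error as bars, for the WT and the hKO library. In the left panel T-like cells stand at 2.67% in WT and 6.23% in hKO, and neutrophil-like cells at 0.67% and 0.41%.

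In T-like cells the mitotic share was higher in hKO than in WT. Of these cells, 36 of 1349 were mitotic in WT, 2.67% (1.88 to 3.68), and 82 of 1317 in hKO, 6.23% (4.98 to 7.67), a log2 ratio of 1.22 (0.67 to 1.78). Without thinning the shares were 9.51% and 15.2%. The intervals of the 2 libraries did not overlap. Mki67 or Top2a was among the detected genes in 31 of the 36 WT and 60 of the 82 hKO cells.

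Within the T-like class the share was higher in hKO among cells with Cd8 transcripts, at 2.82% (20 of 708) and 7.01% (42 of 599), and among those with Cd4, at 3.00% (7 of 233) and 8.21% (22 of 268). Cd8 cells with a UMI of Pdcd1, which encodes the inhibitory receptor PD-1, stood at 2.24% (3 of 134) in WT and 10.97% (17 of 155) in hKO. Cd8 cells without one stood at 2.96% (17 of 574) and 5.63% (25 of 444). Unthinned, the Pdcd1 cells stood at 17.9% and 34.2%. The log2 ratios of the cells with and without Pdcd1 were 2.29 (0.55 to 4.03) and 0.93 (0.06 to 1.80), so their intervals overlapped.

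Of the 42 cell cycle genes, 20 were higher and 1 lower in hKO T-like cells by a log2 ratio of at least 1 with an interval that excluded 0; all 42 had the 20 UMIs over both libraries that this rule asks for. By the same rule 6.49% of all genes at that floor were higher and 4.78% lower. The median log2 ratio was 0.97 over the members and -0.17 over all genes. Among the 23 mitotic members 15 were past the rule and all 23 had a positive ratio, from 0.32 to 1.99, whereas 4 of the 13 S-phase members were past it, with ratios from 0.18 to 2.13.

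Mitotic cyclins and their kinase were all higher. Ccna2, the cyclin of late S phase and mitotic entry, had 31 UMIs in WT and 128 in hKO, or 5.69 and 22.7 CPM (log2 ratio 1.99, 1.42 to 2.61). Cdk1 had 76 and 202 UMIs (14.0 and 35.8 CPM, log2 ratio 1.36), and Ccnb1 27 and 73 (4.96 and 12.9 CPM, log2 ratio 1.38). In each of these genes the hKO level was more than 1 log2 unit above WT.

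Among the mitotic kinases and checkpoint proteins, Birc5, which encodes survivin, a subunit of the Aurora B complex, had 113 UMIs in WT and 336 in hKO (20.8 and 59.5 CPM, log2 ratio 1.52). Aurka, a kinase of spindle poles, had 17 and 51 (log2 ratio 1.53). Plk1, a kinase active from mitotic entry to cell separation, had 25 and 70 (log2 ratio 1.43). The proliferation marker Mki67 had 355 and 596 (65.2 and 106 CPM) and did not reach the rule at a log2 ratio of 0.70. Top2a, the enzyme that untangles DNA, came to just under it with 350 and 722 UMIs (64.3 and 128 CPM, log2 ratio 0.99).

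Of the 11 replication members 4 were past the rule in T-like cells, namely Cdc6, Mcm5, Rrm2 and Pcna. Cdc6, which loads the MCM helicase onto replication origins, had 11 UMIs in WT and 50 in hKO (2.02 and 8.86 CPM, log2 ratio 2.13, 1.17 to 3.22). Mcm5, a helicase subunit, had 80 and 216 (14.7 and 38.3 CPM, log2 ratio 1.38), and Pcna, the sliding clamp of DNA polymerase, 378 and 818 (69.4 and 145 CPM, log2 ratio 1.06). The share of T-like cells with at least 2 S-phase members was 3.71% (50 of 1349) in WT and 6.76% (89 of 1317) in hKO, with a log2 ratio of 0.87 (0.38 to 1.35), and 23.1% and 26.4% unthinned.

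**Figure D2:**
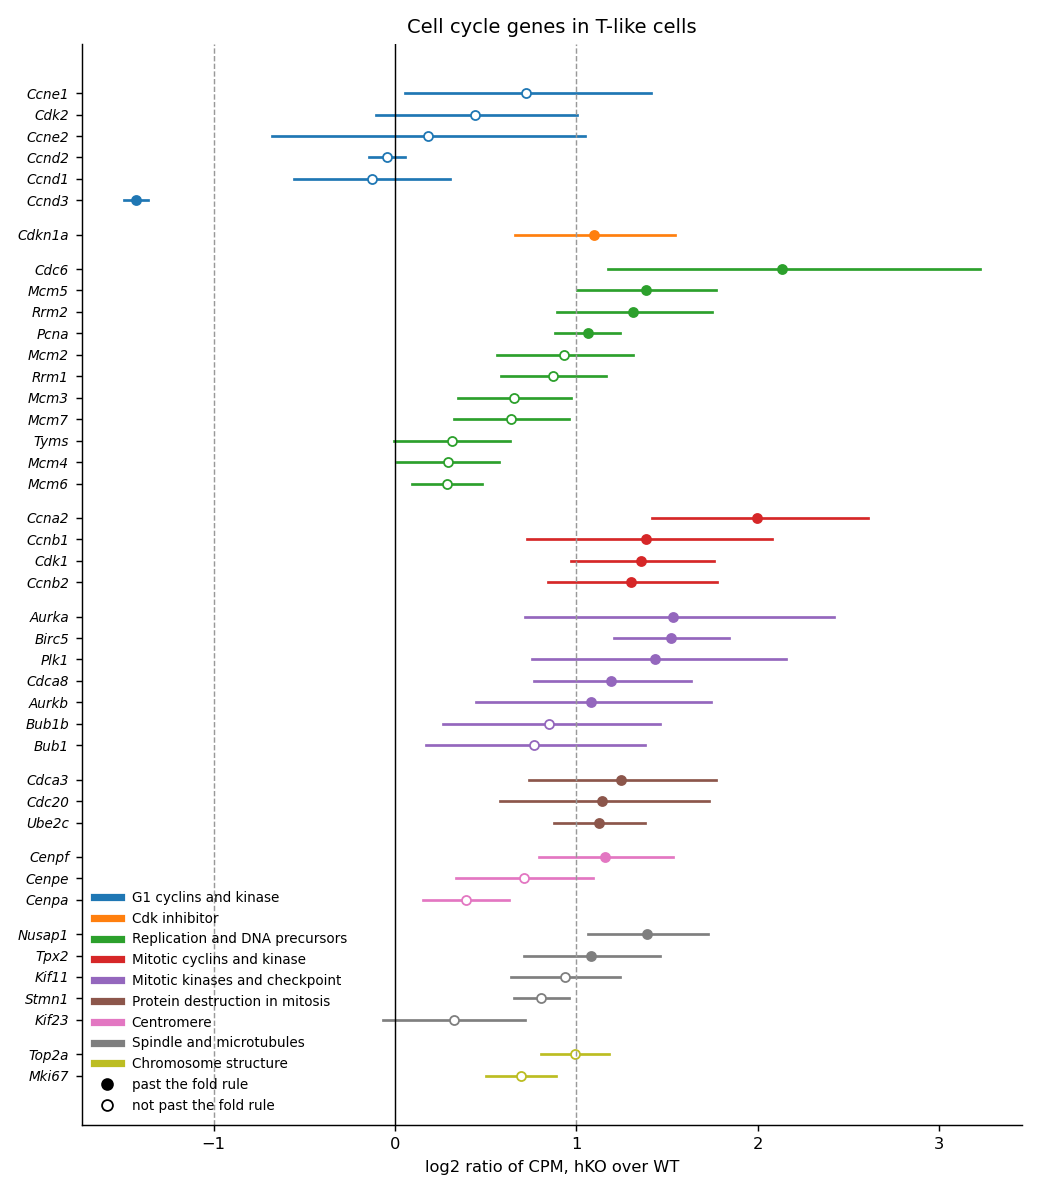
Log2 ratio of CPM in hKO over WT T-like cells (x axis) for each of the 42 cell cycle genes (y axis, by role), with 95% intervals for counting error as bars. Filled points are past the fold rule (dashed lines at -1 and 1) and colours mark roles; 39 of the 42 genes lie above 0, and Ccnd3 lies farthest below it at -1.43.

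The D cyclins did not follow, and the other genes of the first steps were not past the rule. Ccne1 had 31 and 53 UMIs (5.69 and 9.39 CPM, log2 ratio 0.72), Ccne2 23 and 27 and Cdk2 49 and 69. Ccnd1 had 96 UMIs in WT and 91 in hKO T-like cells (log2 ratio -0.13), and Ccnd2, the D cyclin induced on lymphocyte activation, 1618 and 1626 (297 and 288 CPM, log2 ratio -0.04). Ccnd3 was the 1 member past the rule in the lower direction, with 6689 and 2578 UMIs (1228 and 457 CPM, log2 ratio -1.43, -1.49 to -1.36). Cdkn1a, the brake, was higher in hKO with 65 and 144 UMIs (11.9 and 25.5 CPM, log2 ratio 1.10, 0.66 to 1.54).

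The T-like class was made of different clusters in the libraries: cluster 5 held 93.3% of its WT cells and cluster 11 held 93.1% of its hKO cells. In cluster 5 alone the mitotic share was 34 of 1258 cells in WT and 5 of 92 in hKO (2.70% and 5.43%, log2 ratio 1.01, -0.31 to 2.33), and in cluster 11 alone 2 of 91 and 77 of 1225 (2.20% and 6.29%, log2 ratio 1.52, -0.49 to 3.52). The S-phase share did not keep its direction: 44 of 1258 and 1 of 92 cells in cluster 5 (3.50% and 1.09%), and 6 of 91 and 88 of 1225 in cluster 11 (6.59% and 7.18%). Of the mitotic members, 13 of 23 were higher by the rule in cluster 5, beside 2.98% of all genes higher and 2.9% lower there, and 11 of 23 in cluster 11, beside 2.95% and 3.54%. Of the S-phase members 1 of 12 at the floor was higher in cluster 5 and 0 of 13 in cluster 11, and none lower. Mcm5, Aurka and Cdkn1a had negative ratios in cluster 11, at -0.08, -0.15 and -0.38.

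Counts of other cell types' markers also differed between the libraries in T-like cells, some higher and some lower in hKO. Markers of hepatocytes, all 12 detected in both libraries, summed to 0.243% of T-like UMIs in WT and 0.496% in hKO. Macrophage markers summed to 0.344% and 0.468%, erythroid markers to 1.83% and 0.211%, and the T markers themselves to 0.616% and 0.455%. Of these lists, Marco was at 0 in hKO, Hemgn at 0 in hKO and Ermap at 0 in WT, and the other markers were detected in both libraries. Mitochondrial UMIs were 6.76% and 9.12% of the total, at median depths of 3731 and 3633 UMIs. The part of these in the result was not tested. The count of members past the rule was 2 in place of 21 when cell cycle genes were allowed in the clustering, where a mixed cycling cluster of 129 WT and 229 hKO cells was named T-like, and 10 when cells were chosen by marker genes in each cell. Neither setting has a share of all genes beside its count.

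Further mitosis and replication genes of the T-like class lay mostly in the same direction. By the rule 6.49% of all genes were higher in this class and 4.78% lower. Of 50 further mitosis genes, all at the floor, 25 were higher and none lower, with a median log2 ratio of 1.02. They included the centrosome kinase Nek2 (7 and 32 UMIs, log2 ratio 2.14), the separase gene Espl1 (9 and 36, 1.95) and Pclaf, which encodes a PCNA-binding protein (167 and 652, 1.91). Of 36 further replication genes 9 were higher and none lower, led by Uhrf1 (36 and 126, 1.76), a maintenance factor of DNA methylation. Of 17 driver genes at the floor 3 were higher, namely the transcription factors E2f8 (1.72), E2f1 (1.27) and Foxm1 (1.15).

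Of 14 further brakes, which do not include Cdkn1a, none was higher in T-like cells and 2 were lower, beside the 6.49% and 4.78% of all genes, Cdkn1c (17 and 4 UMIs, log2 ratio -2.14) and Cdkn2b (19 and 7, -1.49), with a median of -0.45. Of 19 p53 target genes at the floor 1 was higher, Pidd1 (5 and 15 UMIs, 1.53), and 1 lower, Plk2 (32 and 12, -1.47), shares near those of all genes.

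Promoters of the members hold known elements of cycle control: the CHR and the CCAAT box, through which the DREAM complex and NF-Y act on mitotic genes, and E2F sites, typical of replication genes. Promoters of members that were past the rule in T-like cells are printed, 2 of the mitotic group (Ccnb2, Cdk1) and 2 of the replication group (Cdc6, Mcm5). They are shown because between them they hold matches of each element. Each is the 250 bases before the transcription start from RefSeq on build GRCm38.p6, 5′ to 3′ on the gene's strand, with every match on either strand in capitals, overlapping matches included. A CHR was searched as TTTGAA and, in its rarer spelling, as TTCGAA. The search for the CCAAT box used the letters of its name, and that for an E2F site used TTTCCCGC, TTTCGCGC, TTTGCCGC or TTTGGCGC. Ccnb2 lies at chr9:70421555-70421804 on the minus strand, Cdk1 at chr10:69352913-69353162 on the minus strand, Cdc6 at chr11:98907901-98908150 on the plus strand and Mcm5 at chr8:75109259-75109508 on the plus strand.
Ccnb2: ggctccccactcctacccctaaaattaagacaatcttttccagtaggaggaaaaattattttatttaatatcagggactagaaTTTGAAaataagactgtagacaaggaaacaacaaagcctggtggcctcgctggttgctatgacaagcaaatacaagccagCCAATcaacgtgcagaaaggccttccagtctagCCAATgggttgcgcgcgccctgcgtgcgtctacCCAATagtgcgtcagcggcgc
Cdk1: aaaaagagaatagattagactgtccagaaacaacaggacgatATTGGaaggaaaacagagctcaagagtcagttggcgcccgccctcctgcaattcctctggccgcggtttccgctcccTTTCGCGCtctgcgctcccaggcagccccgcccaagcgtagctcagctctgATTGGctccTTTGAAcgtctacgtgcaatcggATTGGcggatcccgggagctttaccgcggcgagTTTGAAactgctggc
Cdc6: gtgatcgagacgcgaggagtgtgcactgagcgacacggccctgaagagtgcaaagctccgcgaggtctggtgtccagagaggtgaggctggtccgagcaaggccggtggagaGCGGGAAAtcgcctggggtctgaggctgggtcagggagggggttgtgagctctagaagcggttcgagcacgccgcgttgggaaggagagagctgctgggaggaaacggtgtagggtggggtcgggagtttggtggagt
Mcm5: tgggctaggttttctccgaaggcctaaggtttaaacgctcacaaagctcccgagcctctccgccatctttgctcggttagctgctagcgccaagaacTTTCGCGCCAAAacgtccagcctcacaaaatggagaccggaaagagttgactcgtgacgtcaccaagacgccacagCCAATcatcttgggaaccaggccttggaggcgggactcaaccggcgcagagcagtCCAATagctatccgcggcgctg

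In the Ccnb2 window 1 CHR match starts at -167 and 3 CCAAT boxes at -87, -54 and -21, counted back from the transcription start. In the Cdk1 window CHR matches start at -71 and -15, CCAAT boxes at -208, -80 and -48 and an E2F match at -131. The Cdc6 window holds 1 E2F match, at -138, and the Mcm5 window 2 overlapping ones, at -153 and -149, with CCAAT boxes at -77 and -22.

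Windows were found for 34 of the 42 members. A CCAAT box stood in 28 of the 34, in 18 of 20 mitotic and 8 of 11 S-phase members, and in 33.8% of 32851 promoter windows in all. An E2F match stood in 6 of the 34, in 1 of 20 mitotic (Cdk1) and 4 of 11 S-phase members (Cdc6, Mcm5, Mcm6 and Mcm7), and in 1.86% of all windows. A CHR match stood in 10 of the 34, in 8 of 20 mitotic and 2 of 11 S-phase members, and in 17.1% of all. With the 50 bases after the start included, CHR matches were found in 16 of 20 mitotic and 2 of 11 S-phase members and in 19.2% of all windows of 300 bases. A match is a run of letters and no measured binding.

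Conventional dendritic-like cells, which take up antigen and show it to T cells, held mitotic cells in both libraries. The difference in their mitotic share between the libraries was within counting error. Their mitotic share was 22 of 446 in WT, 4.93% (3.12 to 7.37), and 38 of 631 in hKO, 6.02%, with a log2 ratio of 0.29 (-0.45 to 1.02); unthinned shares were 14.4% and 16.2%. None of the 42 members, all at the floor, was past the rule, beside 4.36% of all genes higher and 1.98% lower. Mki67 had 305 UMIs in WT and 300 in hKO (84.9 and 62.2 CPM, log2 ratio -0.45), with CPM intervals that did not overlap. Top2a had 273 and 384 (76.0 and 79.6 CPM) and Pcna 263 and 449 (73.2 and 93.1 CPM, log2 ratio 0.35).

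The highest mitotic share of any named dendritic cluster was in cluster 20, led by Xcr1 and Clec9a, markers of type 1 conventional dendritic cells. It stood at 14 of 120 cells in WT (11.7%) and 15 of 173 in hKO (8.67%). Cluster 15, led by Cd209a, stood at 2.62% (7 of 267) and 5.49% (20 of 364). Cluster 23, with Ccr7 and Ccl22 of migratory cells, held 1 mitotic cell of 59 in WT and 3 of 94 in hKO.

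Most mitotic members were highest in a different class in each library. In WT 15 of the 23 had their highest CPM in conventional dendritic-like cells, and in hKO 17 of the 23 had it in T-like cells. In WT a further 5, Ccnb1, Ccnb2, Cdc20, Cdca3 and Birc5, were highest in hepatocyte-like cells. These are orders of CPM, and for many members the intervals of the highest and the next class overlapped. Top2a in WT stood at 76.0 CPM (67.2 to 85.5) in conventional dendritic-like and 64.3 (57.7 to 71.4) in T-like cells. Bub1b, Aurkb and Cenpf were highest in conventional dendritic-like cells in both libraries, though in hKO the interval of each overlapped that of T-like cells. For Mki67 the WT order was conventional dendritic-like (84.9 CPM, 75.6 to 94.96) above T-like (65.2, 58.6 to 72.3), and the hKO order was T-like (106, 97.3 to 114) above conventional dendritic-like (62.2, 55.4 to 69.6), in neither case with overlapping intervals. Of the 13 S-phase members 6 were highest in NK or innate lymphoid-like cells in WT, and 12 in T-like cells in hKO. For each of the 6 in WT (Mcm2, Mcm4, Mcm5, Mcm6, Mcm7 and Rrm1) the interval overlapped that of the next class. Their order in WT was therefore within counting error. In hKO the T-like interval overlapped that of the next class for Ccne1, Mcm2, Mcm4, Mcm6 and Rrm2. It lay above the next class for Cdc6, Mcm3, Mcm5, Mcm7, Pcna, Rrm1 and Tyms.

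**Figure D3:**
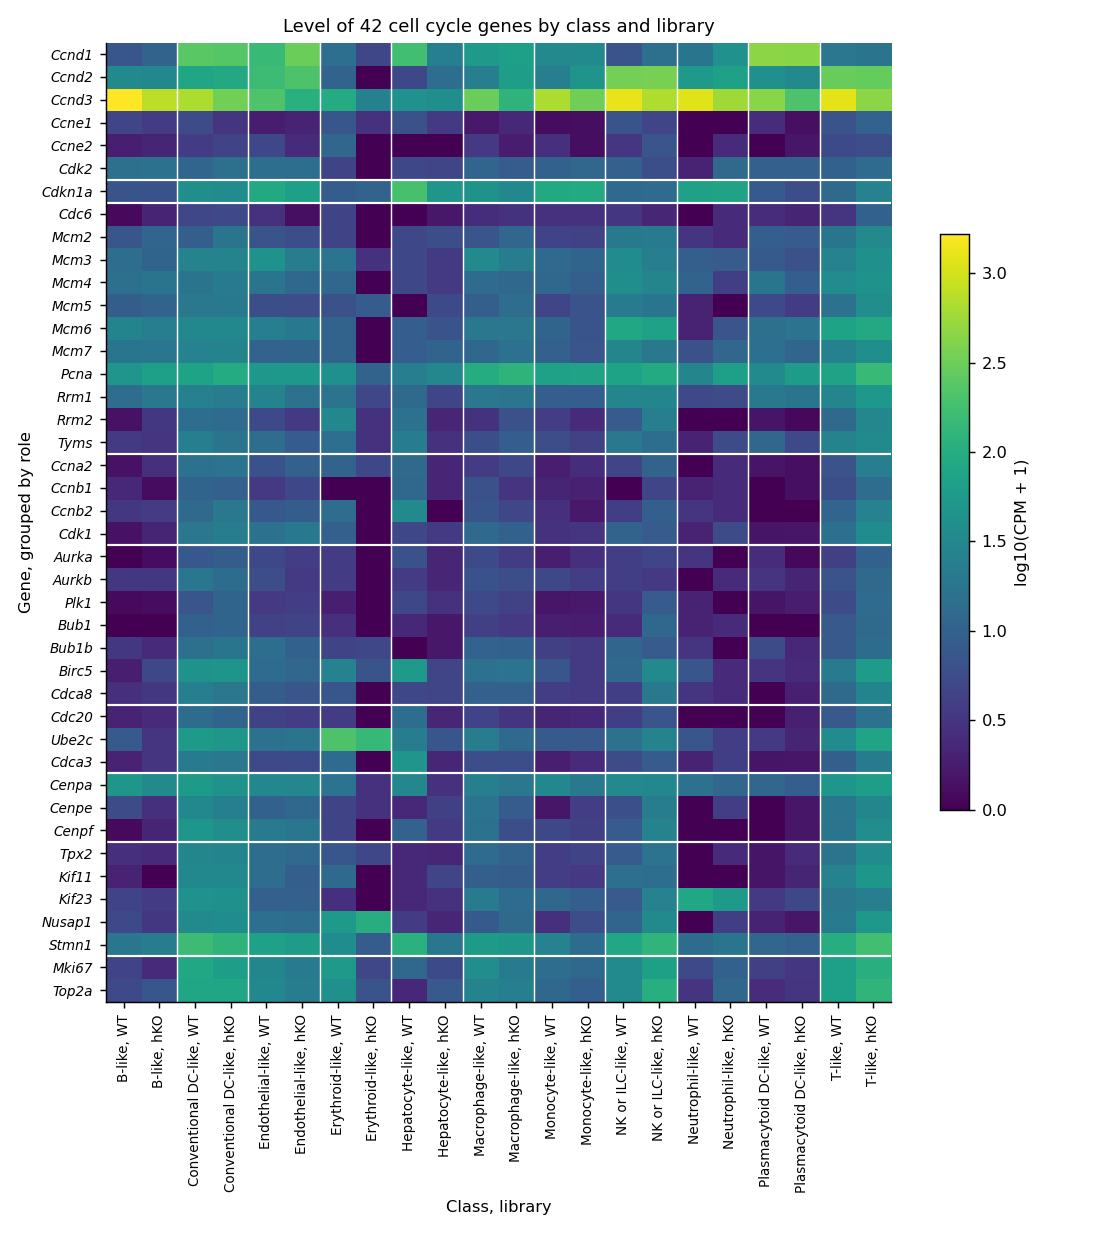
Level of each of the 42 cell cycle genes (rows, by role) in the 11 compared classes of each library (columns), as log10 of CPM + 1 in colour. Of the 23 mitotic genes 15 are brightest in conventional dendritic-like cells in WT and 17 in T-like cells in hKO. In both libraries Ccnd1 is brightest in plasmacytoid dendritic-like, Ccnd2 in NK or innate lymphoid-like and Ccnd3 in B-like cells.

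The mitotic members Ube2c, Nusap1 and Kif23 had their highest level in erythroid-like or neutrophil-like cells in both libraries. Ube2c, the ubiquitin-conjugating enzyme of the anaphase-promoting complex, was highest in erythroid-like cells (236 UMIs, 208 CPM in WT; 74 UMIs, 142 CPM in hKO), as was Nusap1, a spindle protein (52.0 and 99.5 CPM). The proliferation marker Mki67 in the same cells went from 60 UMIs to 2. Kif23, a motor protein of cell separation, was highest in neutrophil-like cells (81 and 36 UMIs, 85.0 and 53.8 CPM), whose mitotic shares were the background. It was among the detected genes in 2 of the 3 mitotic neutrophil-like cells in WT and 0 of 1 in hKO. In monocyte-like cells it was found in 3 of 3 mitotic cells in WT and 1 of 6 in hKO.

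NK or innate lymphoid-like cells, which kill target cells without prior priming, had few mitotic cells, 4 of 316 in WT (1.27%) and 6 of 203 in hKO (2.96%). Of the 27 members at the floor 8 were higher and none lower, beside 4.23% and 3.63% of all genes. The UMIs of Top2a numbered 45 in WT and 88 in hKO (log2 ratio 1.70), Mki67 44 and 55 (1.05), and Cenpe, a motor of the kinetochore, 7 and 18 (2.09). Cenpf had 10 and 22 (1.87), Kif23 10 and 21 (1.80) and Nusap1 14 and 27 (1.68). The S-phase share was 3.48% and 2.96%. Hepatocyte markers summed to 0.226% of the UMIs of these cells in WT (11 of 12 detected, Cyp2e1 at 0) and 0.497% in hKO (12 of 12). Their own markers summed to 0.791% and 0.561% and T markers to 0.171% and 0.0983%, all detected, and mitochondrial UMIs made up 6.20% and 9.21%. The part of these in the result was not tested. By a marker gate in each cell 0 members were higher and 2 lower, without a share of all genes for that setting. Mki67, Top2a and Cenpf turned negative when cell cycle genes were allowed in the clustering, at -1.14, -1.20 and -0.88, and no member was then past the rule.

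Macrophage-like cells gave shares and levels that did not run together. The mitotic share was 17 of 898 in WT (1.89%) and 37 of 1257 in hKO (2.94%), with 8.19% and 6.05% unthinned, while the summed level of the mitotic members was 270 CPM in WT and 199 in hKO, so no order is read from the share. Of 41 members at the floor 2 were higher and 5 lower, beside 4.90% and 4.25% of all genes. Ccnd2 had 139 UMIs in WT and 375 in hKO (22.4 and 61.7 CPM, log2 ratio 1.46), whereas Cenpf, a kinetochore protein, had 94 and 30 (log2 ratio -1.62) and Ccnb1 33 and 13 (-1.31). Mki67 stood at 36.6 and 20.1 CPM (-0.87) and Rrm2 had 12 and 32 UMIs (1.44).

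The macrophage-like cells were of different clusters. In WT cluster 13, led by Cd5l, Vsig4 and Clec4f of Kupffer cells, held 54.0% and cluster 14 held 42.3%; in hKO cluster 14 held 44.0% and cluster 21 held 48.1%. Mitotic cells were 10 of 496 in cluster 13 in WT and 0 of 133 in hKO, with limits of 2.26% from 3 counts of the total and 2.74% from the Clopper-Pearson interval, and 7 of 393 and 16 of 729 in cluster 14. Cluster 21 had 21 of 395 in hKO (5.32%), with 416 of its 811 cells under 1000 UMIs. With cell cycle genes in the clustering the ratios of Ccnb1, Cenpf and Cenpe in macrophage-like cells turned positive, at 2.73, 1.24 and 1.10.

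Endothelial-like cells line the sinusoids and vessels. Their mitotic share was 20 of 1190 in WT (1.68%) and 6 of 527 in hKO (1.14%), and 6.32% and 4.89% unthinned. Of 40 members at the floor Ccnd1 alone was past the rule, beside 4.88% of all genes higher and 3.44% lower, with 1101 UMIs in WT and 852 in hKO (147 and 307 CPM, log2 ratio 1.06, 0.93 to 1.19). With doublets kept no member was past the rule. At a mitochondrial limit of 10%, 7 members were higher and 0 lower, without a share of all genes for that setting. Clusters 9 and 16 held 71.8% and 22.8% of the WT cells, and clusters 9 and 7 held 56.7% and 33.5% of the hKO cells.

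Of the further lists, replication genes had the most members past the rule in endothelial-like cells. Of all genes there, 4.88% were higher and 3.44% lower. Of 30 further replication genes at the floor 7 were lower and none higher, among them Clspn, which encodes a replication checkpoint protein (60 and 7 UMIs, log2 ratio -1.67). The brake Cdkn1c, which encodes p57, had 609 and 71 UMIs (81.4 and 25.6 CPM, -1.67). Of 46 further mitosis genes 1 was higher and 3 were lower. Mycn was higher (7 and 16 UMIs, 2.62), as was the p53 target Tnfrsf10b (43 and 77, 2.27).

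Hepatocyte-like cells came almost wholly from 1 cluster in each library, 308 of 309 WT cells from cluster 18 and 812 of 813 hKO cells from cluster 27, so that library and cell state cannot be told apart. Mitotic cells were 6 of 194 in WT, 3.09% (1.14 to 6.61), none with Mki67 or Top2a, and 0 of 567 in hKO, where 3 counts of the total give a limit of 0.529% and the Clopper-Pearson interval one of 0.648%. Of 12 members at the floor 1 was higher and 8 lower, beside 19.2% of all genes higher and 43.8% lower, with a median over all genes of -0.81. Ccnd1 had 128 and 38 UMIs (171 and 23.6 CPM, log2 ratio -2.86), Cdca3, a trigger of mitotic entry, 35 and 2 (-5.24) and Birc5 39 and 6 (-3.81). The 1 higher member, Ccnd2 (3 and 22 UMIs, 1.76), stood at -1.68 with doublets kept. With cells chosen by marker genes in each cell, 10 members were higher and 4 lower, without a share of all genes for that setting. Ccnb2 had 25 UMIs in WT and 0 in hKO, a log2 ratio below -4.17 against a floor of 3 counts in the library. Mitochondrial UMIs were 7.81% in WT and 17.1% in hKO, and their part in the result was not tested.

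Erythroid-like, monocyte-like, B-like and plasmacytoid dendritic-like cells each held at most 6 mitotic cells in either library. In erythroid-like cells 7 of 10 members at the floor were lower, beside 27.1% of all genes, and none higher, beside 7.77%. The lower ones included Mki67 (60 and 2 UMIs), Top2a (45 and 3) and Rrm2 (35 and 1, log2 ratio -4.01). The mitotic share there was 5 of 263 in WT (1.90%) and 5 of 159 in hKO (3.14%), and 15.8% and 9.32% unthinned. In each library 2 of the 5 cells were counted on Ube2c and Nusap1 alone. Monocyte-like cells stood at 0.46% and 0.49%, B-like cells at 0.23% and 0.48%, and plasmacytoid dendritic-like cells at 0 of 283 and 1 of 926, all near the neutrophil-like background. In monocyte-like cells 3 of 30 members at the floor were higher, beside 4.54% of all genes, and 3 lower, beside 2.11%. At mitochondrial limits of 10% and 50%, 11 were higher and 1 lower, without shares of all genes for those settings. Ccnd2 was the higher gene with the most UMIs (80 and 286, 22.7 and 45.8 CPM, log2 ratio 1.01). In B-like cells 3 of 23 members at the floor were lower, beside 3.4% of all genes, and none higher, beside 5.42%: Ccnd3, Ube2c (33 and 7 UMIs, log2 ratio -1.81) and Cenpe (21 and 6, -1.38). Cluster 3 held 1268 of the 1315 WT and cluster 25 held 1215 of the 1279 hKO B-like cells. In cluster 3 alone 3 of 18 members at the floor were higher, beside 4.73% of all genes, and 1 lower, beside 2.28%, and in cluster 25 alone none of 14 was past the rule, beside 1.86% and 3.79%. Ube2c stood at 0.68 in cluster 3, and Ccnd3 at -1.01 and -0.98 in clusters 3 and 25. In plasmacytoid dendritic-like cells 3 of 17 were lower, beside 1.96%, and none higher, beside 4.47%: Ccnd3, Tyms (21 and 22 UMIs, -1.38), which makes thymidylate, and the helicase subunit Mcm4 (33 and 43, -1.06). At the finer clustering resolution of 2.0, 5 members were higher and 1 lower there, without a share of all genes for that setting.

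Among unnamed clusters, cluster 12 held markers of both T cells and macrophages at median depths of 9473 UMIs in WT and 10457 in hKO. Its mitotic share was 4 of 159 (2.52%) and 38 of 528 (7.20%). Cluster 4, with fibroblast and Kupffer cell genes, stood at 23 of 345 (6.67%) and 6 of 50. There 430 of 775 WT and 43 of 93 hKO cells were under 1000 UMIs, and unthinned shares were 5.29% and 12.9%. When cluster 12 was counted as T-like, 13 members were past the rule in T-like cells, without a share of all genes for that setting.

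Among the D cyclins, Ccnd3 was at the floor in all 11 classes and Ccnd1 and Ccnd2 in 10, and Ccnd3 was lower in hKO nearly throughout. It went from 1643 CPM in WT to 792 in hKO in B-like cells, from 1302 to 683 in NK or innate lymphoid-like cells and from 1134 to 571 in neutrophil-like cells. It went from 668 to 325 in monocyte-like, 658 to 334 in conventional dendritic-like, 436 to 207 in plasmacytoid dendritic-like and 301 to 121 in macrophage-like cells. In endothelial-like cells it stood at 214 and 108 CPM, in erythroid-like cells at 94.4 and 24.9 and in hepatocyte-like cells at 41.5 and 39.1. The interval lay below 0 in 10 of the 11 classes, with hepatocyte-like cells (-0.09) as the exception, and 6 classes were past the rule.

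The lower Ccnd3 was also seen in shares of cells at equal depth. Of T-like cells thinned to 1000 UMIs, 66.1% had a Ccnd3 UMI in WT and 35.0% in hKO (89.4% and 65.3% unthinned), and of B-like cells 77.1% and 51.3%. Of 2556 genes at the floor in all 11 classes, 130 (5.09%) had intervals below 0 in at least 10 classes and 201 (7.86%) above 0. At a log2 ratio of -0.9 or less in at least 10 classes, a limit chosen after the values of Ccnd3 were seen, there were 8 genes (0.313%), Ccnd3 included. Of the 3 members among the 2556 genes Ccnd3 was the 1 with intervals below 0 in that many classes. Over all kept cells it stood at 658 and 321 CPM (log2 ratio -1.04). With 1 library of each genotype, a shift seen in nearly all classes cannot be told apart from a difference between the library preparations.

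Ccnd1 and Ccnd2 showed no such common shift. Ccnd1 was level in plasmacytoid dendritic-like cells (449 and 440 CPM) and conventional dendritic-like cells (248 and 236 CPM). It was higher in hKO in endothelial-like cells and in neutrophil-like cells (16 and 28 UMIs, log2 ratio 1.32), and lower in hepatocyte-like cells. In neutrophil-like cells, where 2 of 8 members at the floor were higher beside 12.9% of all genes and none lower beside 4.26%, Pcna was the other one (27 and 43 UMIs, 1.18). Ccnd2 was higher in macrophage-like and monocyte-like cells and differed little in T-like (297 and 288 CPM) and NK or innate lymphoid-like cells (344 and 359 CPM).

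**Figure D4:**
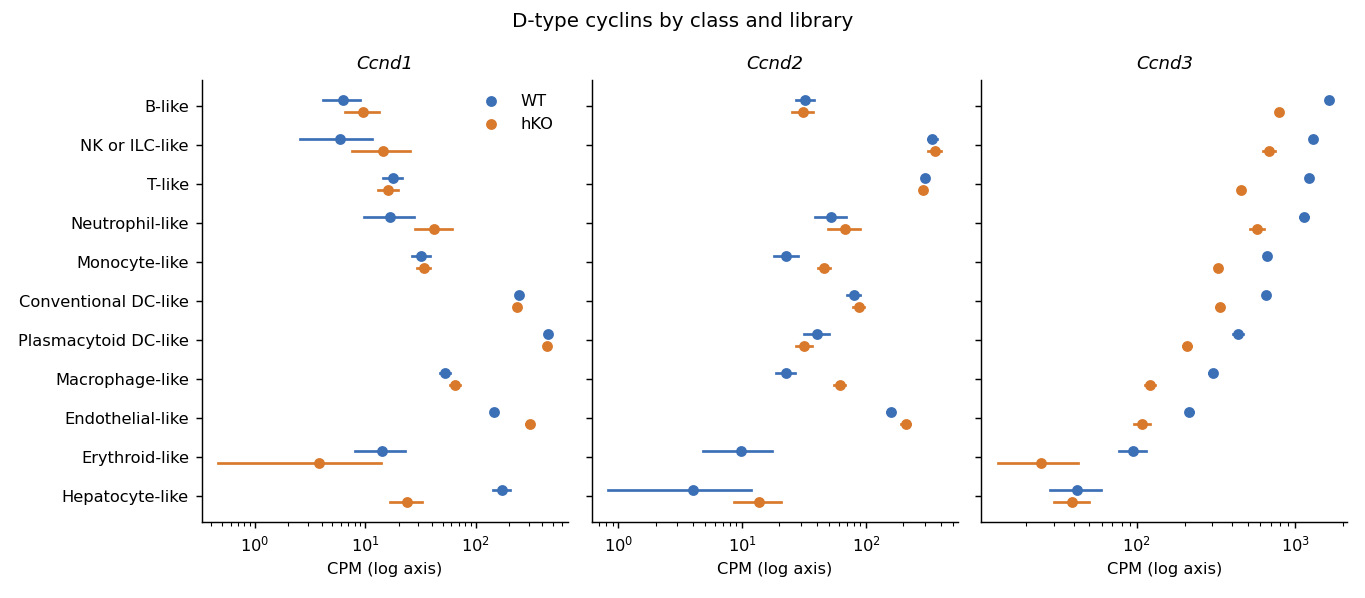
Level of Ccnd1, Ccnd2 and Ccnd3 (x axis, CPM on a log scale; 1 panel per gene) in each compared class (y axis), with 95% intervals for counting error, in WT and hKO. For Ccnd3 the hKO points lie below the WT points in the classes shown, by little in hepatocyte-like cells (41.5 and 39.1 CPM).

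Over all kept cells 2 of the 42 members were past the rule, both lower, Ccnd3 and Cdkn1a, beside 4.69% of all genes higher and 11.6% lower. Cdkn1a stood at 4523 UMIs in WT and 2047 in hKO, or 101 and 42.3 CPM (log2 ratio -1.26). Cluster 22, left unnamed because it carries markers of both bile duct cells and hepatocytes (172 cells in WT, 32 in hKO), held 2668 of the WT UMIs (59.0%) and 13 of the hKO UMIs. Its level was 779 CPM in WT and 35.1 in hKO, at median depths of 15677 and 11330.5 UMIs. Without cluster 22 the level over all kept cells was 44.9 and 42.4 CPM, a log2 ratio of -0.08 (-0.18 to 0.01).

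A finer clustering, at resolution 2.0, divided cluster 22 into 106 cells, all from WT, and 98 others. The 106 cells had a median of 21715.5 UMIs and held the hepatocyte gene Alb at 14374 CPM, the secreted protein gene Spp1 at 2364 CPM and 1 UMI of the duct keratin Krt19. Without thinning, Cdkn1a was found in 93.4% of them, with 2482 UMIs (986 CPM), or 54.9% of its UMIs in the WT library. Mki67 had 1 UMI, and 0 of 105 cells were mitotic, with limits of 2.86% from 3 counts of the total and 3.45% from the Clopper-Pearson interval. In the remaining part of cluster 22, where Krt19 was at 170 CPM in WT, Cdkn1a had 205 CPM (WT) and 35.1 CPM (hKO).

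Some other brakes and p53 targets were high in the same 106 cells. Those named here are a part of the lists of 14 brakes and 20 p53 targets, without a count over the lists. Cdkn2a, the gene of the inhibitor p16, was found in 84.0% of them without thinning. It had 1261 UMIs (501 CPM), 61.8% of its WT total, and the neighbouring inhibitor gene Cdkn2b stood at 246 CPM, 78.9% of its total. Mdm2, which encodes the ubiquitin ligase of p53, stood at 476 CPM. Phlda3 (287 CPM, 73.9% of its WT UMIs), Eda2r (105 CPM, 72.4%) and Perp (268 CPM, 81.9%), all p53 targets, were likewise concentrated there. Cdkn1b, the gene of the inhibitor p27, stood at 38.5 CPM with 2.66% of its WT UMIs. These genes were read in these cells because Cdkn1a was high there. Cluster 22 as a whole held 3423191 of the 44720349 kept WT UMIs. The 106 cells had a median of 21715.5 UMIs, against 3753 over all kept WT cells.

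**Figure D5:**
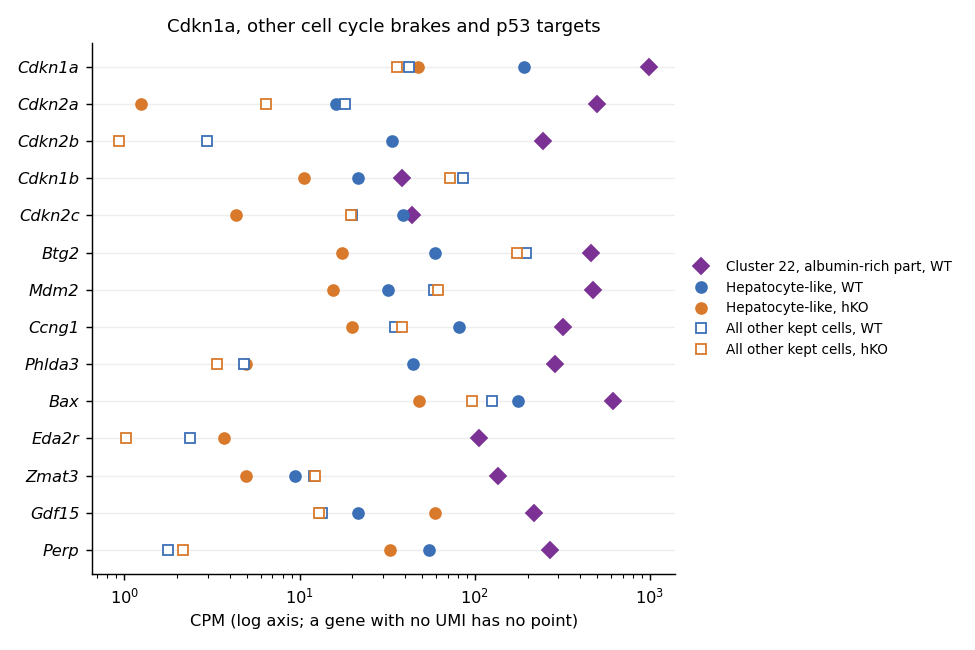
Level of Cdkn1a and of other brakes and p53 targets (x axis, CPM on a log scale) in the 106 albumin-rich WT cells of cluster 22 (diamonds), in hepatocyte-like cells (filled circles) and in the other kept cells (open squares) of each library; no error is drawn. Cdkn1a stands at 986 CPM in the 106 cells and at 41.9 (WT) and 36.0 (hKO) in cells outside clusters 22 and 26 and the hepatocyte-like class.

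Outside cluster 22, Cdkn1a had its highest level among the compared classes in hepatocyte-like cells in WT and in monocyte-like cells in hKO. In cluster 26, an unnamed cluster with hepatocyte and cholangiocyte markers, it had 15 UMIs in WT (332 CPM) and 363 in hKO (170 CPM). In hepatocyte-like cells it had 142 and 76 UMIs (190 and 47.1 CPM, log2 ratio -2.01). It stood at 90.1 and 90.2 CPM in monocyte-like cells and was lower in endothelial-like cells (87.9 and 63.7 CPM, log2 ratio -0.46).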

How the data were processed

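Raw UMI counts per gene and cell, as deposited by the authors, came from Cell Ranger 7.1.0, per the file headers; the submitters' processing notes name Cell Ranger, R 3.0, Seurat 3 and build mm9, with no annotation release given. The 14289 WT and 18657 hKO barcodes were filtered for at least 200 genes, 500 UMIs and at most 25% mitochondrial UMIs. Scrublet called 0% and 0.0175% of cells doublets, so the 777 and 1049 cells with the highest scores, the number expected at a doublet share of 0.008 per 1000 cells, were removed. This took 9.09% of mitotic and 8.35% of other cells in WT, and 7.98% and 9.77% in hKO. Cells of both libraries were clustered jointly without integration (scanpy 1.11.5; 2000 variable genes, 30 components, 15 neighbours, Leiden resolution 1.0), leaving out 257 cell cycle genes, and clusters were named from marker lists.

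UMIs were summed per class and library, since cells are not replicates. Log2 ratios of CPM carry exact conditional binomial 95% intervals, shares Clopper-Pearson and share ratios Katz intervals. A count of 0 also carries the limit that 3 counts of the total give. A gene passed the fold rule if it had 20 or more UMIs over both libraries, a log2 ratio of 1 or more or of -1 or less, and an interval without 0. The code was tested on simulated data. No test was possible with 1 library per group. The named genes were Mki67, Top2a, Cdk1, Ccnb1, Pcna, Mcm5, the D cyclins and Cdkn1a, with up to 4 further members each way per class past the rule and up to 3 genes each way of each further list; some others are named to describe a group. A few genes chosen in this way are left out of the text. The members and gene lists were chosen with earlier results of these data known. After values were seen, the share of raised markers of another type at which a cluster stays unnamed was set to 40% in place of 50%, which left cluster 12 unnamed. Also chosen then were the split of cluster 22, the promoters shown and their window, and the restriction of share ratios to classes with at least 10 positive cells. Alternatives changed the filters, clustering, class rule, thinning, scaling and fold rule. Promoters are RefSeq windows on GRCm38.p6 and were not placed on the build of the files. The members without a matched window were Ccna2, Ccne2, Ccnd1, Ccnd2, Aurkb, Tpx2, Mcm4 and Stmn1.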

Additional observations from a re-analysis of the deposited data

How the results depend on the processing

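Over 26 main results, 200 recomputed values kept their direction and stayed within the main counting interval or within 1.5 times the main count, 63 moved farther and 3 reversed; the cause was not tested in any of these. The log2 ratio of mitotic shares over all kept cells was 0.81 at a mitochondrial limit of 10%, 0.10 without thinning and 0.073 with 1 gene in place of 2. In T-like cells it was 1.81 at the 10% limit and 0.54 with 1 gene, and in macrophage-like cells -0.265 at the 10% limit and -0.44 without thinning. The S-phase ratio reversed without thinning over all kept cells (-0.080) and in macrophage-like cells (-0.82), where the thinned values were 0.32 and 1.01. In T-like cells the S-phase ratio was 0.19 without thinning, 0.355 with 1 gene, 1.40 with 3 genes, 0.12 in cluster 11 alone and, reversed, -1.69 in cluster 5 alone. The count of members past the fold rule in T-like cells, 21, was 2 with cell cycle genes in the clustering, 10 by a marker gate in each cell, 5 with a floor of 50 CPM, 33 with a lower limit on the log2 ratio, that of a 1.5-fold difference, 13 with cluster 12 counted as T-like and 12 in cluster 11 alone. With the floor of 50 CPM the count was 1 in B-like, monocyte-like, neutrophil-like and plasmacytoid dendritic-like cells, 2 in erythroid-like, macrophage-like and NK or innate lymphoid-like cells and 4 in hepatocyte-like cells. With that lower limit it was 9 over all kept cells (6 higher and 3 lower, against 0 and 2), 3 in conventional dendritic-like, 4 in neutrophil-like, 5 in endothelial-like (1 higher and 4 lower, against 1 and 0) and 15 in macrophage-like cells. With the 10% mitochondrial limit it was 1 in B-like, 2 in conventional dendritic-like, 3 in NK or innate lymphoid-like, 4 in macrophage-like and 6 in neutrophil-like cells. At that limit it was also 7 in endothelial-like (7 higher and 0 lower, against 1 and 0) and 12 in monocyte-like cells. With the 50% limit it was 2 in conventional dendritic-like, 9 in neutrophil-like and 12 in monocyte-like cells (11 higher and 1 lower at both limits, against 3 and 3). With doublets kept it was 0 in endothelial-like and 7 in neutrophil-like cells. At resolution 2.0 it was 2 in conventional dendritic-like, 3 in NK or innate lymphoid-like, 4 in macrophage-like and 6 in plasmacytoid dendritic-like cells (5 higher and 1 lower, against 0 and 3). With cell cycle genes in the clustering it was 0 in monocyte-like and NK or innate lymphoid-like cells and 3 in conventional dendritic-like and erythroid-like cells. By the marker gate it was 1 in conventional dendritic-like, 2 in NK or innate lymphoid-like (0 higher and 2 lower, against 8 and 0), 4 in macrophage-like and neutrophil-like and 14 in hepatocyte-like cells (10 higher and 4 lower, against 1 and 8). Leaving abundant genes out of the total gave 1 over all kept cells and in B-like, conventional dendritic-like and plasmacytoid dendritic-like cells, and centring on the median gave 1 in the latter 3. Of the values for single genes 822 stayed within the interval, 184 moved and 25 reversed. With cell cycle genes in the clustering Rrm2 (0.72) and Stmn1 (0.30) reversed in erythroid-like cells, Ccnb1 (2.73), Cenpf (1.24) and Cenpe (1.10) in macrophage-like, Nusap1 (-0.25) in monocyte-like and Mki67 (-1.14), Top2a (-1.20) and Cenpf (-0.88) in NK or innate lymphoid-like cells. By the marker gate Pcna (0.10) reversed in erythroid-like, Mki67 (-0.20) in NK or innate lymphoid-like and Birc5 (1.89) in monocyte-like cells. In monocyte-like cells Birc5 reversed also at the 10% (2.42) and 50% limits (2.19) and with doublets kept (1.79), Stmn1 at the same settings (0.069, 0.00016 and 0.013) and Cenpe at resolution 2.0 (-0.0056). With doublets kept Ccnd2 reversed in hepatocyte-like cells (-1.68). In cluster 11 alone Mcm5 (-0.078), Cdkn1a (-0.38) and Aurka (-0.15) reversed in T-like cells. In B-like cells the count was 0 in cluster 25 alone, and in cluster 3 alone Ube2c (0.68) reversed, as did Cenpe (1.33) with its 0 UMIs in hKO set to 3. Cluster 12 counted as T-like and the values of clusters 3, 5, 11 and 25 alone were added after the data had been seen. Shares of all genes past the rule are given only for the main setting and for clusters 3, 5, 11 and 25 alone. No paired analysis was possible because each group has 1 library, and no replicate could be left out. Depth limits the rarer classes: neutrophil-like cells had 8 of the 42 members at the floor, erythroid-like cells 10 and hepatocyte-like cells 12, so a missing call there says little.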
